A study of Mus musculus with 4 samples.

Results

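The cells described are 322 of 11861 single mesenteric lymph node cells whose transcripts marked them as conventional CD4 T cells, although the sort was aimed at dendritic cells. They were chosen by measured values: at least 2 transcripts (unique molecular identifiers, UMIs) of the CD3 genes Cd3e, Cd3d and Cd3g together, at least 1 of Cd4 and Cd40lg together, none of Cd8b1, under 2000 CPM (counts per 1000000 UMIs of the cell) of the MHC class II chaperone gene Cd74, and fewer than 2 of the 3 genes Foxp3, Ctla4 and Izumo1r. A cell also needed exactly 1 hashtag, at least 500 genes, at least 3000 UMIs and at most 10% mitochondrial UMIs. These genes chose the cells, so their levels are given below as a description. The hCD2+ fraction gave 72 such cells of 7099 kept cells, and the hCD2- fraction 250 of 4762.

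Droplet-based single-cell RNA sequencing was run on lymph node cells of 12 untreated mice aged 15 days, of the genotype Gm38411-iCre-hCD2 R26 tdTomato. The sort took CD11c+ MHC-II+ tdTomato+ cells that lacked CD3 and B220, and split them by surface hCD2 into the hCD2+ and the hCD2- fraction, both labelled as dendritic cells. In this reporter the Gm38411 locus drives an iCre recombinase and a human CD2 marker, and tdTomato stays on in any cell that once expressed the recombinase and in its progeny, so hCD2 marks current and tdTomato past activity. Each mouse carried its own hashtag antibody and contributed cells to both fractions. The cells of all mice in a fraction were run together as 1 library, so fraction and library cannot be told apart.

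CD4 T cells are helper lymphocytes whose T cell receptor reads peptides on MHC class II, with CD4 as co-receptor. Naive ones leave the thymus, enter lymph nodes with CCR7, leave by S1PR1, and stay quiescent under transcription factors such as TCF-1 (Tcf7), LEF1 and BACH2. In the gut-draining nodes they meet food and microbial antigens on dendritic cells and can become effector, follicular helper or FOXP3+ regulatory cells.

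The label was checked against markers. All 8 CD4 T cell markers that the choice had not used were found in at least 10% of the cells of both fractions. These were Igfbp4, Lef1, Bcl11b, Tcf7, Trac, Trbc1, Trbc2 and Cd28. Each stood above its level in free RNA, which was taken from droplets of 10 to 100 UMIs. CD8 T cells (defined below) met both limits for all 8 markers too, so the 8 do not tell CD4 from CD8 T cells. Igfbp4, Lef1, Bcl11b and Tcf7 had also been named for these cells with results of these data known. At least 2 UMIs of the T cell receptor constant genes Trac, Trbc1 and Trbc2, none of which the choice had used, were present in 69 of 72 hCD2+ and 249 of 250 hCD2- cells. Trac alone was seen in 84.7% of hCD2+ and 97.6% of hCD2- CD4 T cells (median depths 13571 and 15157 UMIs). Among kept cells with no CD3 transcript, the background for this gene, it was seen in 3.69% of hCD2+ and 10.8% of hCD2- cells (median depths 18426 and 26613 UMIs). Of the genes used for the choice, the co-receptor gene Cd4 was found in 68 hCD2+ and 243 hCD2- CD4 T cells, and Cd40lg, the CD40 ligand of helper cells, in 36 hCD2+ and 141 hCD2- CD4 T cells. Both were found together in 32 hCD2+ and 134 hCD2- cells.

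Cells just inside and just outside each limit of the rule were counted. At the CD3 limit, 9 members held exactly 2 CD3 UMIs, and 32 cells with 1 met every other condition. Of those, 66.7% inside and 62.5% outside held 2 or more receptor constant UMIs. On Cd4 and Cd40lg, 31 members held a single UMI, while 306 otherwise matching cells held none, of which 90.8% had receptor constant transcripts. A single Cd8b1 UMI kept out 25 cells, and between 2000 and 2500 CPM of Cd74 there were 4 cells outside the limit, with 8 inside it from 1500. Exactly 2 of Foxp3, Ctla4 and Izumo1r were seen in 73 cells outside, and 1 of them in 181 members. Among the 72 hCD2+ members 35 had none of these 3 genes, 20 Ctla4 alone, 17 Izumo1r alone and 0 Foxp3 alone; among the 250 hCD2- members 106 had none, 47 Ctla4 alone, 96 Izumo1r alone and 1 Foxp3 alone.

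Called cells accounted for 178129025 UMIs of the hCD2+ library and 150904166 of the hCD2- library. All 12 mice gave CD4 T cells in both: 1 to 13 per mouse (median 6.5) in the hCD2+ fraction and 8 to 41 (median 18.5) in the hCD2- fraction, with 1205255 and 4036323 UMIs in all. Of 20 barcodes called in both libraries none carried the same hashtag in both, and no CD4 T cell was shared. Expression is given in CPM of the summed CD4 T cells of a mouse in a fraction, where there were at least 5, which left samples of 7 mice for hCD2+ and of 12 for hCD2-.

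The reporter transcripts that define the fractions were scarce in these cells. hCD2 had 5 UMIs in all hCD2+ CD4 T cells (4.15 CPM) and 2 in all hCD2- ones (0.496 CPM), against 42.8 CPM in hCD2+ cells with no CD3 transcript and 25.7 CPM in the free RNA of that library. Gm38411 had 3 UMIs (2.49 CPM) in hCD2+ and 2 (0.496 CPM) in hCD2- CD4 T cells, against 45.7 CPM in hCD2+ cells with no CD3 transcript. The hCD2+ CD4 T cells thus carried less hCD2 and Gm38411 RNA than the free RNA around them. No iCre or Cre transcript was detected in CD4 T cells of either fraction, where a count of 0 allows up to 2.49 CPM in hCD2+ and 0.743 CPM in hCD2- CD4 T cells (3 counts, counting error only). tdTomato, the marker of past recombinase activity, was read at 222 CPM in hCD2+ and 424 CPM in hCD2- CD4 T cells, above free RNA at 158 CPM in the hCD2+ and 246 CPM in the hCD2- library.

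CD4 T cells made up a smaller part of the hCD2+ fraction. Per mouse they were 0.188% to 2.34% of kept hCD2+ cells (median 0.905%) and 2.94% to 7.72% of kept hCD2- cells (median 5.02%). The fractions did not overlap, and the share was lower in hCD2+ in 12 of 12 mice. The means were 0.982% ± 0.591 in hCD2+ and 5.08% ± 1.64 in hCD2- (SD, n = 12 mice each), a difference of -4.09 percentage points (2-sided permutation test over mice, p = 1e-05, the smallest that 100000 permutations can give; adjusted over 3 tests of shares 3e-05). This share also moves with every other cell type in the gate.

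Within the T cells (CD3 and Cd74 limits as above, 402 hCD2+ and 1233 hCD2- cells) the share of CD4 T cells overlapped between the fractions. It ran from 6.67% to 28% (median 19.6%) in hCD2+ and from 9.43% to 27.1% (median 21.8%) in hCD2- samples. Means were 17.4% ± 6.52 in hCD2+ and 19.97% ± 5.82 in hCD2- (SD, n = 12 each), a difference of -2.57 points that did not pass the test (permutation p = 0.313, adjusted 0.313), with lower values in hCD2+ in 10 of 12 mice. Without the 28 cells of clusters 6, 7 and 8 described below, the share was 13.8% in hCD2+ and 19.2% in hCD2- (permutation p = 0.0385, adjusted 0.0578). When the rule was applied after every cell had been thinned to 3000 UMIs, it was 19.5% in hCD2+ (11 mice) and 19.6% in hCD2- (permutation p = 0.977).

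**Figure D1:**
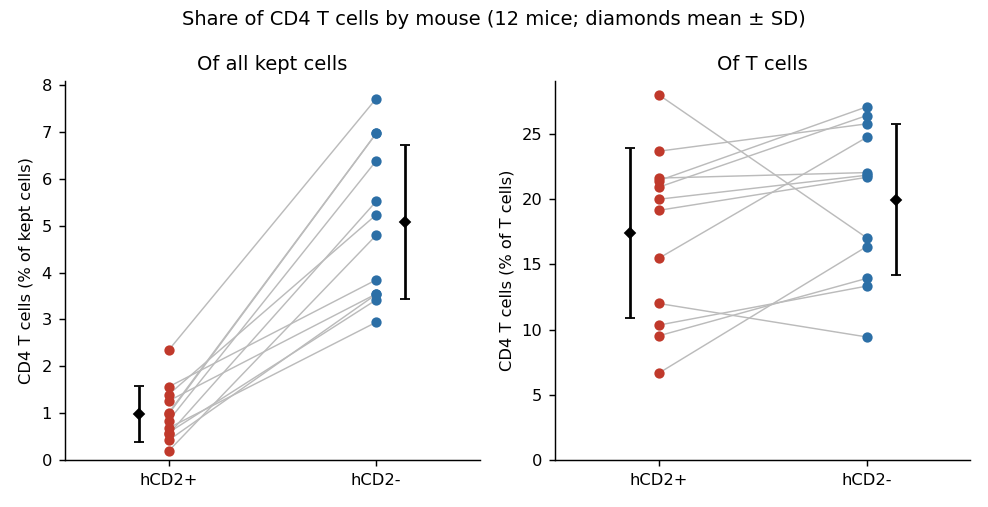
CD4 T cells as a percentage of all kept cells (left) and of T cells (right) in each of 12 mice, with hCD2+ at the left of each panel and lines joining the fractions of a mouse. Diamonds are means and bars SD. All kept-cell shares in hCD2+ lie below all those in hCD2-, while the T cell shares overlap.

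After thinning, few CD4 T cells met the limit set for dividing cells. After thinning to 3000 UMIs, 6 of 72 hCD2+ and 7 of 250 hCD2- CD4 T cells held at least 2 UMIs of Mki67, Top2a, Ccnb2, Cdk1, Birc5 and Nusap1. Per mouse this was 5.37% ± 6.85 in hCD2+ (n = 7) and 2.81% ± 3.28 in hCD2- (n = 12), which did not pass an exact 2-sided permutation test (p = 0.288, adjusted 0.313). Mki67, a gene of cycling cells, pooled to 60.6 CPM in hCD2+ and 56.2 CPM in hCD2- CD4 T cells, below its free RNA level of 72.3 CPM in the hCD2+ and 130 CPM in the hCD2- library. Without thinning, 14 of 72 hCD2+ and 35 of 250 hCD2- CD4 T cells met the limit of 2 UMIs. For comparison, after thinning 17 of 171 hCD2+ and 33 of 522 hCD2- CD8 T cells (defined below) met it. So did 40 of 66 hCD2+ and 12 of 101 hCD2- T cells with at least 2 of Foxp3, Ctla4 and Izumo1r.

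Genes of naive T cells were abundant in both fractions. Lef1 ranged from 836 to 2283 CPM (median 1417) in hCD2+ and from 1354 to 2590 CPM (median 2159) in hCD2- samples, and Tcf7 from 661 to 1034 CPM (median 842) in hCD2+ and from 643 to 1200 CPM (median 940) in hCD2- samples. Satb1, a chromatin organizer of T cells, averaged 1963 CPM ± 506 in hCD2+ and 2766 CPM ± 350 in hCD2- samples. Bach2, which holds back effector programmes, averaged 1071 CPM ± 382 in hCD2+ and 1424 CPM ± 292 in hCD2- samples. All 18 genes of a list for naive and quiescent T cells were found in at least 10% of cells in both fractions, 17 above free RNA in hCD2+ (Ccr7 included, at 541 CPM pooled over 417 CPM in free RNA) and 18 in hCD2-. Il7r, the interleukin-7 receptor chain on which naive T cells live, pooled to 723 CPM in hCD2+ CD4 T cells, below the 1227 CPM of that library's free RNA, and to 629 CPM in hCD2- CD4 T cells, above the 273 CPM of theirs.

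Genes of receptor rearrangement and some helper cytokines were at 0, while other genes of young and of effector T cells were found. Rag1, Rag2, Dntt and Ptcra, which mark receptor rearrangement in the thymus, had no UMI in either fraction, while Sox4, which stays on in young T cells, averaged 79.6 CPM ± 48.9 in hCD2+ and 82.0 CPM ± 27.5 in hCD2- samples (free RNA 94.2 and 46.0 CPM in the hCD2+ and the hCD2- library). Itm2a, another gene of recent thymic emigrants, averaged 231 CPM ± 138 in hCD2+ and 210 CPM ± 74.2 in hCD2- samples. The 23 genes of the helper effector list summed to between 212 and 1128 CPM (median 639) in hCD2+, where 9 of them were above free RNA, and to between 134 and 734 CPM (median 215) in hCD2- samples, where 5 were. Of the helper cytokines, Il5, Il13 and Il17f had no UMI in either fraction. Il17a had 31 UMIs, all in 1 hCD2+ cell, and none in hCD2-. Ifng was seen in 2 hCD2+ and 6 hCD2- cells, and Il4 in 2 hCD2+ and 1 hCD2- cells. Ltb, the lymphotoxin chain that acts in lymph node structure, averaged 240 CPM ± 143 in hCD2+ and 238 CPM ± 63.8 in hCD2- samples, where free RNA held 335 CPM in the hCD2+ and 152 CPM in the hCD2- library. Bcl6, the factor of follicular helper cells, averaged 79.8 CPM ± 21.4 in hCD2+ and 104 CPM ± 43.3 in hCD2- samples, but its partner receptor gene Cxcr5 was seen in 3 hCD2+ and 8 hCD2- cells.

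Clustering split the members into 8 groups, which are described without a test because the same genes made them. Clusters 1, 2, 4 and 5 held 236 of the 322 cells and carried the naive genes, with Lef1 between 2475 and 2797 pooled CPM and S1pr1, the egress receptor, between 409 and 453. Cluster 1 (12 hCD2+ and 62 hCD2- cells) was led by Tnfaip8l1, Gtpbp8, Flt3l, Ampd1 and Thy1. Its 12 dendritic cell markers summed to 705 CPM, against 253 to 266 CPM in clusters 2, 4 and 5. Among them Fscn1 was at 154 CPM, seen in 22 of its 74 cells. Cluster 2 (12 hCD2+ and 52 hCD2- cells) was led by genes that included Pgpep1l, Pip5k1b, Myb and St8sia6, a sialyltransferase gene at 513 CPM against 198 CPM in the other members. Cluster 4 (6 hCD2+ and 45 hCD2- cells) was led by Dapl1, Spef2, Zfp566, Pde2a and Nln, with Dapl1 at 325 CPM against 88.8 CPM in the other members. Cluster 5 (11 hCD2+ and 36 hCD2- cells) was led by the interferon-induced genes Iigp1, Ifit1, Gbp6, Ifit3 and Oasl2, with Iigp1 at 234 CPM against 7.40 CPM in the other members.

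Cluster 3 (14 hCD2+ and 44 hCD2- cells) kept T cell receptor transcripts, with Trac at 772 CPM, but was led by Nkg7, Top2a, Zbtb16, Mki67 and Ccr2. Zbtb16, the factor PLZF of innate-like T cells, was seen in 12 of its 58 cells and pooled to 164 CPM. In cluster 3, 7 of 10 markers of NK or ILC1 cells and 3 of 5 of NKT or MAIT cells were raised at least 2-fold. Ikzf2, which encodes Helios, reached 482 CPM in cluster 3, Lef1 was at 1010 CPM and S1pr1 at 150 CPM. All but 1 of its 58 cells held at least 2 receptor constant UMIs. Nkg7, Zbtb16 and Ccr2 were each seen in 20.7% of its cells, while Cd4 was seen in 94.8%, Trac in 91.4%, Lef1 in 93.1% and Tcf7 in 96.6%. Its leading genes thus go against the name of conventional CD4 T cells for a part of the cluster only.

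Clusters 6, 7 and 8 went against the label in part. Cluster 6 (5 hCD2+ and 6 hCD2- cells) was led by Tmcc3, Ccl22, Cxcl1, Cd40 and Strip2, with 10 of 12 dendritic cell markers raised, a median of 40387 UMIs per cell and Trac at 372 CPM. Cluster 7 (6 hCD2+ and 3 hCD2- cells) was led by Cyp7b1, Fn1, Bcl11a, Slc8a1 and Gpm6b, with 9 of 12 dendritic cell and 7 of 8 monocyte or macrophage markers raised beside Trac at 595 CPM. A raised marker was at least 2-fold over the other members and in at least 10% of the cluster's cells, which a single cell meets here. The 8 monocyte or macrophage markers summed to 139 CPM, below free RNA at 393 CPM in the hCD2+ and 231 CPM in the hCD2- library. Cyp7b1 and Gpm6b were each seen in 22.2% of the cells of cluster 7. Cluster 8 (6 hCD2+ and 2 hCD2- cells) had no Trac UMI, which allows up to 19.6 CPM, no Cd40lg and no Igfbp4, while Cd4 stood at 358 CPM. It was led by Mapk10, Cntn1, Ttn, Arhgef28 and Lingo2, with Il23r at 678 CPM, Il1r1 at 248 CPM and Kit at 508 CPM, and 11 of 12 markers of ILC3 or lymphoid tissue inducer cells raised. Transcripts of Trbc1 and Trbc2, which can be made without a rearranged receptor, still gave 87.5% of these cells at least 2 receptor constant UMIs. By its leading genes cluster 8 also goes against the name of conventional CD4 T cells. Clusters 6, 7 and 8 held 17 of 72 hCD2+ and 11 of 250 hCD2- cells, so comparisons between fractions are also given without them. Cluster 8 came out with the same cells in all 5 repeats with another seed, resolution or number of components, while the best match of cluster 7 shared between 10.2% and 42.9% of the joint cells, that of cluster 6 between 33.3% and 100% and that of cluster 3 between 42.4% and 89.7%. For clusters 1, 2 and 4 the lowest such share was between 45.6% and 49.4%, and for cluster 5 it was 74.5%.

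**Figure D2:**
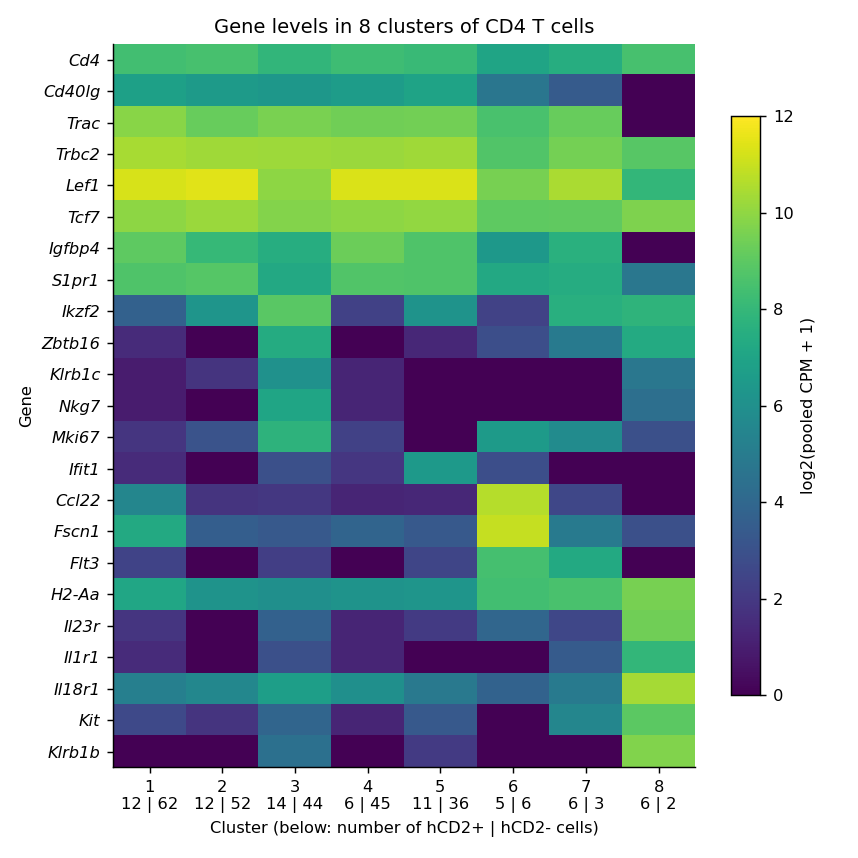
Pooled level of marker genes (rows, log2 of CPM plus 1) in the 8 clusters of CD4 T cells (columns, with the number of hCD2+ and hCD2- cells below). Cluster 8 lacks Trac, Cd40lg and Igfbp4 and carries Il23r, Il1r1 and Kit, cluster 6 carries Ccl22 and Fscn1, cluster 5 Ifit1, and cluster 3 Zbtb16 and Nkg7.

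Between the fractions, CD4 T cells of the hCD2+ fraction had lower Tgfbr2 and Trib2 and higher Cd44 than those of the hCD2- fraction. Of 4176 genes tested, 100 (2.39%) passed edgeR's quasi-likelihood test at an adjusted p under 0.05, 54 higher and 46 lower in hCD2+ (1.29% and 1.1%), with n = 7 hCD2+ and 12 hCD2- mice. With the mouse as a block, 19 genes passed (5 higher, 14 lower), and without clusters 6, 7 and 8, 30 passed (12 higher, 18 lower), of which 25 were among the 100. Leaving out hCD2+ mouse 8 left 58 calls and mouse 11 left 60, and leaving out mouse 5 gave 164.

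Tgfbr2 encodes the type II receptor of TGF-beta and lies on chromosome 9 (GRCm38, 116084293 to 116175360). It ranged from 223 to 373 CPM (median 344) in hCD2+ and from 445 to 653 CPM (median 571) in hCD2- samples. The fractions did not overlap, as in 23 of the genes tested (0.551%). Its log2 fold change was -0.72 ± 0.13 (SE, adjusted p = 0.00176), and -0.66 ± 0.16 without clusters 6, 7 and 8 (adjusted p = 0.0392). With the mouse as a block it was -0.65 ± 0.15 and no longer passed (adjusted p = 0.111), nor did it without clusters 3, 6, 7 and 8 (-0.49 ± 0.16, adjusted p = 0.252, 4 hCD2+ mice).

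Cd44, a hyaluronan receptor that is high on activated and memory T cells (chromosome 2, 102811141 to 102901665), ranged from 76.7 to 579 CPM (median 156) in hCD2+ and from 14.9 to 140 CPM (median 65.9) in hCD2- samples. It was higher in hCD2+ in 6 of 7 mice, by 1.73 ± 0.39 on the log2 scale (adjusted p = 0.0169). Within clusters 6, 7 and 8 Cd44 pooled to 509, 277 and 372 CPM, and in clusters 1 to 5 to between 22 and 104 CPM. Free RNA held more Cd44 than the summed CD4 T cells, at 346 CPM in the hCD2+ and 249 CPM in the hCD2- library. Without clusters 6, 7 and 8 the difference was 0.89 ± 0.39 (adjusted p = 0.41), and with the mouse as a block 1.61 ± 0.45 (adjusted p = 0.215).

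Trib2, which encodes a tribbles pseudokinase (chromosome 12, 15791727 to 15816922), ranged from 51.6 to 111 CPM (median 75.9) in hCD2+ and from 116 to 188 CPM (median 155) in hCD2- samples, without overlap. Its log2 fold change was -0.96 ± 0.17 (adjusted p = 0.00207), and -0.90 ± 0.19 without clusters 6, 7 and 8 (adjusted p = 0.0121). With the mouse as a block (adjusted p = 0.0874) and without clusters 3, 6, 7 and 8 (-0.65 ± 0.22, adjusted p = 0.295) it did not pass. Among the other genes lower in hCD2+ were Galnt6 and Galnt11, which start O-linked glycans, Sipa1, which turns off RAP GTPases, Bcl2l11, which encodes the pro-apoptotic protein BIM, and Cd55, which protects cells from complement, with log2 fold changes between -0.98 and -0.84. Without clusters 6, 7 and 8 Bcl2l11 passed (adjusted p = 0.0107), while Galnt6 (-0.72, adjusted p = 0.103), Galnt11 (-0.87, adjusted p = 0.261), Sipa1 (-0.56, adjusted p = 0.462) and Cd55 (-0.62, adjusted p = 0.49) did not. With the mouse as a block none of these 5 passed (adjusted p between 0.0874 and 0.292).

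Of the genes higher in hCD2+, St6galnac3, a sialyltransferase gene (chromosome 3, 153198266 to 153725174), kept its call with the mouse as a block. It ranged from 129 to 749 CPM (median 476) in hCD2+ and from 38.4 to 298 CPM (median 147) in hCD2- samples, and was higher in 7 of 7 mice although the ranges overlapped. The log2 fold change was 1.58 ± 0.36 (adjusted p = 0.0176), 1.69 ± 0.33 with the block (adjusted p = 0.0477), 1.59 ± 0.42 without clusters 6, 7 and 8 (adjusted p = 0.0662) and 0.69 ± 0.44 without clusters 3, 6, 7 and 8 (adjusted p = 0.75). The largest changes upward were those of Plcb4 (2.90 ± 0.64), a phospholipase C gene, Gab2 (2.45 ± 0.62), an adaptor gene, and Ptprj (2.12 ± 0.53), a receptor phosphatase gene. All 3 overlapped between fractions, and none of them was tested without clusters 6, 7 and 8, where their counts were too low. Ptprj turned to -0.31 without cells that held a UMI of innate lymphocyte genes such as Zbtb16, Il23r and Il1r1 (adjusted p = 0.923) and did not pass with the mouse as a block (adjusted p = 0.175). Each of the 3 lost its call without mouse 11 (adjusted p between 0.0749 and 0.105). Gab2 also rose in CD8 T cells (2.57 ± 0.64, adjusted p = 0.0245).

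Of the gene lists, few members passed between fractions. In the naive list of 18 tested genes 0 were higher and 1 lower, with a median log2 fold change of -0.28, against 0.04 over all genes tested. In the activation and memory list 1 of 14 tested (Cd44) was higher and none lower (median 0.42). Among 12 cytokine receptor genes tested 1 (Tgfbr2) was lower (median -0.04), and among 10 homing genes 1 was lower (median -0.01). None passed among 15 T cell receptor signalling genes (median -0.27), 10 lineage transcription factors (median -0.18), 3 receptor constant genes (median -0.15), 6 interferon response genes (median 0.07), 9 early response and heat shock genes (median 0.25) and 3 genes of recent thymic emigrants (median 0.06). Igfbp4, Lef1, Bcl11b and Tcf7 did not pass either (median -0.21).

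Markers of other cell types were summed per mouse. The 12 dendritic cell markers came to 423 to 3580 CPM (median 811) in hCD2+ and 240 to 1815 CPM (median 763) in hCD2- samples, with Xcr1 at 0 in hCD2+. Free RNA held more of them, 11315 CPM in the hCD2+ and 15657 CPM in the hCD2- library. Above free RNA stood 2 of the 12 in hCD2+ and 0 in hCD2- CD4 T cells. The 12 markers of ILC3 or lymphoid tissue inducer cells summed to between 238 and 1842 CPM (median 622) in hCD2+ and between 265 and 1088 CPM (median 467) in hCD2- samples, and the 5 of NKT or MAIT cells to between 0 and 906 CPM (median 123) in hCD2+ and between 0 and 266 CPM (median 31.4) in hCD2- samples. In free RNA the former came to 3917 CPM in the hCD2+ and 1805 CPM in the hCD2- library. The latter came to 483 CPM in the hCD2+ and 136 CPM in the hCD2- library. The 10 regulatory T cell markers summed to between 91.1 and 987 CPM (median 359) in hCD2+, with Foxp3 and Lrrc32 at 0, and between 159 and 663 CPM (median 315) in hCD2- samples. Their free RNA sum was 650 CPM in the hCD2+ and 268 CPM in the hCD2- library. Of 7 B or plasma cell markers, 4 were at 0 in hCD2+ and 3 in hCD2-, Ms4a1 and Pax5 among them in both. In each fraction 2 of the 7 stood above free RNA. Of 12 mitochondrially encoded genes tested, 6 were higher and 2 lower in hCD2+ (4 and 1 without clusters 6, 7 and 8, 0 and 1 with the mouse as a block). Over all 4176 genes tested with all members and no block, 1.29% were higher and 1.1% lower. The median mitochondrial share was 1.69% in hCD2+ and 1.57% in hCD2- cells. Apart from the values without clusters 6, 7 and 8 and the repeat in CD8 T cells below, the part of these markers in the calls was not tested.

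The same contrast was fitted in CD8 T cells of these libraries (11 hCD2+ and 12 hCD2- mice) together with the CD4 T cells. Of 6228 genes, 225 (3.61%) passed in CD4 and 75 (1.2%) in CD8 T cells in this joint fit, from which the fold changes of both classes are taken here. Without clusters 6, 7 and 8 of the CD4 T cells, 66 of 6448 genes passed in CD4 and 104 in CD8 T cells, so the order of the counts turned round. Rps29, a ribosomal protein gene, ranged from 729 to 1097 CPM (median 921) in hCD2+ and from 1587 to 2491 CPM (median 2133) in hCD2- CD4 T cells, a log2 fold change of -1.16 ± 0.07 (adjusted p = 2.41e-16). In CD8 T cells it changed by -1.08 ± 0.06 (adjusted p = 2.79e-18). Rps28, Rpl38, Rps27, Cmss1 and Gphn were likewise lower in hCD2+ in both classes. Of 77 ribosomal protein genes in the fit of CD4 T cells alone 0 were higher and 10 lower, with a median log2 fold change of -0.017 over the 77. Over all 4176 genes of that fit, 1.29% were higher and 1.1% lower. tdTomato fell to between 132 and 261 CPM (median 207) in hCD2+, against 340 to 574 CPM (median 397) in hCD2- CD4 T cells, a log2 fold change of -0.97 ± 0.12 (adjusted p = 6.05e-08). In CD8 T cells that of tdTomato was -0.57 ± 0.09 (adjusted p = 4.62e-05). Since each fraction was 1 library, sort and library cannot be told apart as the source of what both classes share.

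In CD8 T cells, on the other hand, Tgfbr2 changed by 0.01 ± 0.11, Trib2 by -0.03 ± 0.17 and Cd44 by 0.25 ± 0.27, none of which passed. The difference between the classes was tested over the same 6228 genes, and 1 passed (0.0161%; 507 had an unadjusted p under 0.05). This gene was Wdr26, with a log2 fold change of -0.45 ± 0.09 in CD4 and 0.20 ± 0.07 in CD8 T cells, a difference of -0.65 ± 0.12 (adjusted p = 0.00886). Without clusters 6, 7 and 8, 3 genes passed, which were Wdr26 (-0.63 ± 0.13, adjusted p = 0.0483), Tmem131l (-1.39 ± 0.26, adjusted p = 0.0172) and Cxcr6 (3.85 ± 0.81, adjusted p = 0.0483). With all members Tmem131l (-0.19 ± 0.33, adjusted p = 0.931) and Cxcr6 (3.65 ± 0.77, adjusted p = 0.0702) had not passed. In the CD4 T cells left, Cxcr6 had 32 UMIs in 8 cells of cluster 3, 1 UMI in cluster 4 and none in the other clusters. For Tgfbr2 (-0.76 ± 0.18, adjusted p = 0.139), Trib2 (-0.95 ± 0.25, adjusted p = 0.231) and Cd44 (1.48 ± 0.43, adjusted p = 0.284) the difference did not pass, so these changes are not shown to be particular to CD4 T cells.

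**Figure D3:**
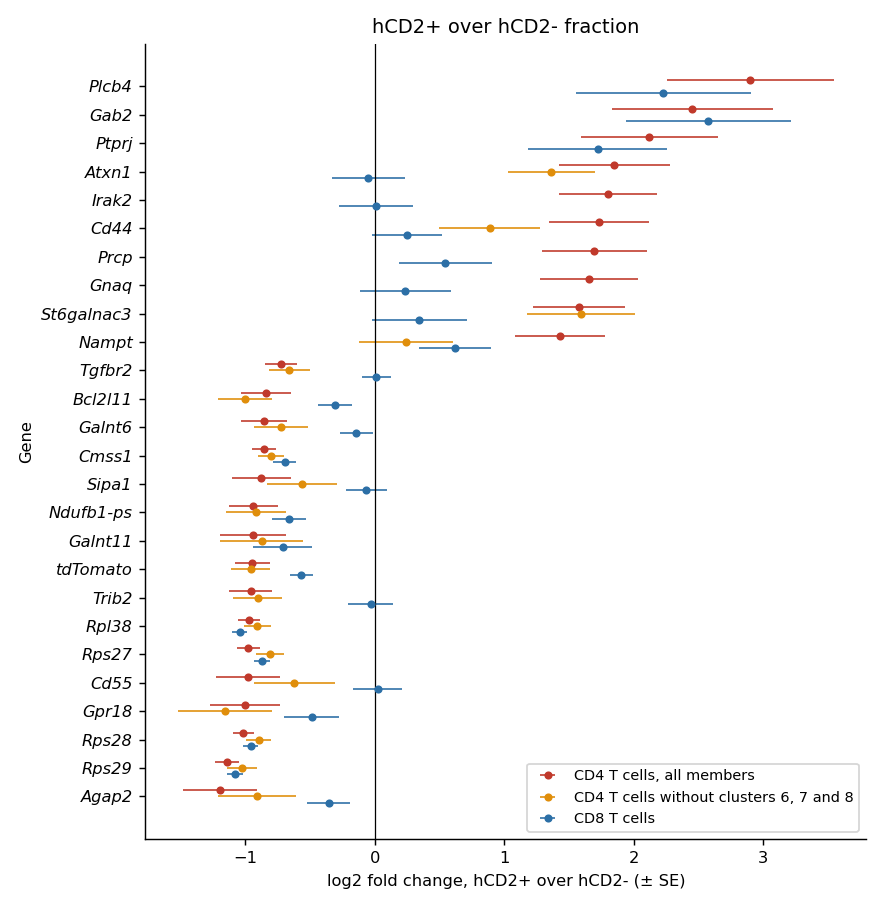
Log2 fold change (± SE) of hCD2+ over hCD2- for genes called in CD4 T cells, in all CD4 T cells (red), in CD4 T cells without clusters 6, 7 and 8 (orange) and in CD8 T cells (blue). A missing orange point is a gene too low to be tested there. The 4 ribosomal protein genes drawn lie near -1 in all 3, while Tgfbr2 and Trib2 lie near 0 in CD8 T cells.

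**Figure D4:**
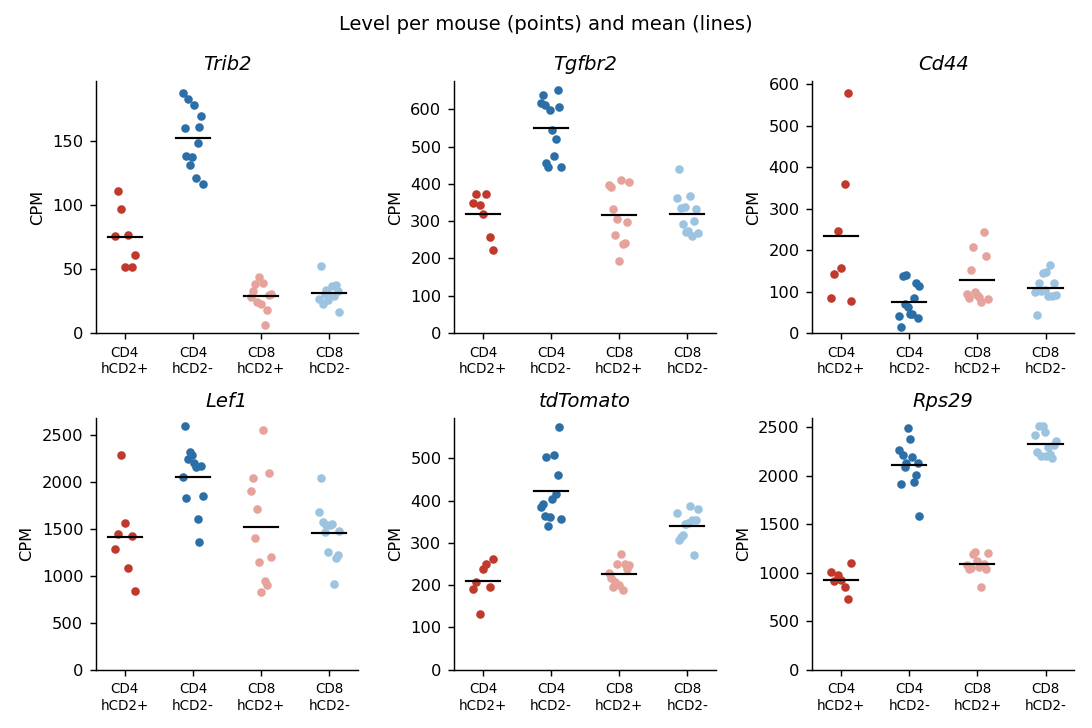
CPM per mouse (points) and mean (line) of 6 genes in CD4 and CD8 T cells of the hCD2+ and hCD2- fractions, for mice with at least 5 cells. Tgfbr2, Trib2 and tdTomato in hCD2+ CD4 T cells lie below all hCD2- CD4 values, and Rps29 is lower in hCD2+ in both classes.

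CD4 T cells were next compared with CD8 T cells of the same library (hCD2-, 250 CD4 and 522 CD8 T cells, 12 mice each), where CD8 T cells had at least 1 Cd8b1 UMI and no Cd4 or Cd40lg UMI. CD4 T cells had more Igfbp4, St8sia6, Trat1, Cd5, Runx1 and Tox, and less Itgae, Ly6c2, Nkg7 and Eomes. Of 6317 genes, 2173 (34.4%) passed, 1080 higher and 1093 lower in CD4 T cells (17.1% and 17.3%). The genes that chose the classes are left out of what follows, and the markers Igfbp4, Tcf7, Bcl11b and Lef1 had been named for these cells with results of these data known.

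All 4 of those markers were higher in CD4 T cells, which describes them and is no independent check, as they were named with these data known. Igfbp4, a binding protein of insulin-like growth factors (chromosome 11, 99041244 to 99054392), ranged from 184 to 534 CPM (median 322) in CD4 and from 25.6 to 138 CPM (median 76.0) in CD8 T cells. The classes did not overlap, as in 148 of the genes tested (2.34%), and the log2 fold change was 2.07 ± 0.19 (adjusted p = 5.36e-10, higher in 12 of 12 mice). Tcf7 changed by 0.82 ± 0.08, Bcl11b by 0.61 ± 0.09 and Lef1 by 0.50 ± 0.10, each higher in 12 of 12 mice with some overlap of the ranges. St8sia6, which adds sialic acids and lies on chromosome 2 (13651021 to 13794064), had the largest change among the genes named, with 116 to 443 CPM (median 299) in CD4 and 0.930 to 12.4 CPM (median 4.86) in CD8 T cells (log2 fold change 5.77 ± 0.25, adjusted p = 1.99e-17).

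T cell receptor signalling genes were mostly higher. Of 15 tested, 10 were higher and 1 lower (median 0.42, against 0.01 over all genes). Cd5, which tempers receptor signals, ranged from 321 to 587 CPM (median 420) in CD4 and from 160 to 229 CPM (median 197) in CD8 T cells, without overlap (1.19 ± 0.09, adjusted p = 1.48e-11). Trat1, an adaptor gene, was higher by 2.19 ± 0.19, and Cd247, the zeta chain of the receptor complex, by 0.74 ± 0.12. Themis, needed for positive selection in the thymus, was lower in 12 of 12 mice (-0.42 ± 0.09, adjusted p = 0.000433). Without clusters 3, 6, 7 and 8 the change of Themis did not pass (-0.13, adjusted p = 0.233). The receptor constant genes Trac, Trbc1 and Trbc2 did not pass (median 0.13).

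Among 10 transcription factors of the CD4 lineage list, 8 were higher and 1 (Tcf12) lower (median 0.60). Runx1 (chromosome 16, 92601466 to 92826149) ranged from 495 to 1354 CPM (median 745) in CD4 and from 158 to 288 CPM (median 230) in CD8 T cells, without overlap (1.76 ± 0.12, adjusted p = 1.57e-12). Tox, which is needed for CD4 T cell development, was higher by 1.55 ± 0.12 and Satb1 by 0.78 ± 0.06, both without overlap. Of 4 tested genes of recent thymic emigrants, Tox, Sox4 (1.36 ± 0.16) and Itm2a (0.64 ± 0.16) were higher and the gut homing receptor gene Ccr9 lower (-1.54 ± 0.29).

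The naive list had 12 of 18 genes higher and 2 lower (median 0.50). Bach2 was higher by 0.73 ± 0.09 and S1pr1 by 0.75 ± 0.09, both in 12 of 12 mice. Ccr7 was higher by 0.50 ± 0.18, but without clusters 6, 7 and 8 it did not pass (0.25, adjusted p = 0.197). Of the cytokine receptors 5 of 13 were higher and 4 lower (median 0.10). Il6ra, which receives interleukin-6, was higher by 1.51 ± 0.12 and Tgfbr2 by 0.77 ± 0.09, both in 12 of 12 mice without overlap, while Il2rb, shared by interleukins 2 and 15, was lower in 11 of 12 mice (-1.97 ± 0.29) and Ifngr1 in 12 of 12 (-0.85 ± 0.12).

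The 10 genes named with the largest change downward in CD4 T cells were of several kinds. Itgae, the alpha chain of the CD103 integrin, ranged from 0 to 8.96 CPM (median 2.11) in CD4 and from 20.8 to 110 CPM (median 57.6) in CD8 T cells, without overlap (-4.67 ± 0.36, adjusted p = 1.48e-11). Ly6c2, a memory T cell marker, changed by -4.09 ± 0.36, Nkg7, a granule gene, by -3.79 ± 0.45, Eomes, a factor of cytotoxic memory, by -3.01 ± 0.43, and Crtam by -3.00 ± 0.29. The others were Cd163l1 (-4.01), Ifngas1 (-3.80), Bend4 (-3.30), Plac8 (-3.21) and Rad51b (-2.87), a gene of DNA repair. The T helper list had 4 genes high enough to test, with Tbx21 (-1.53 ± 0.32) and Il12rb2 (-1.89 ± 0.40) lower and Bcl6 (0.94 ± 0.17) higher. In the activation and memory list 5 of 18 were higher, among them Icos (0.88 ± 0.15), a co-stimulatory receptor gene, and 7 lower, among them Ahnak (-1.25 ± 0.15) and Tnfrsf9 (-1.72 ± 0.32), with a median of -0.10. Of 6 proliferation genes Mcm5 and Mcm6 were lower, and no interferon gene of 9 and no early response or heat shock gene of 10 passed.

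The other comparison set CD4 T cells of the hCD2- library beside the T cells of that library with at least 2 of Foxp3, Ctla4 and Izumo1r (101 cells, 10 mice with at least 5). It uses the same hCD2- CD4 T cells as the comparison with CD8 T cells. CD4 T cells had more Tcf7, Lef1 and Tgfbr2 and less Il2ra, Tnfrsf4, Ikzf2, Nrp1 and Maf. Of 4470 genes, 451 (10.1%) passed, 170 higher and 281 lower in CD4 T cells (3.8% and 6.29%).

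Most activation and memory genes were lower in CD4 T cells. Of 21 tested 17 were lower and none higher, with a median of -1.37, against -0.01 over all genes. Il2ra, the high-affinity interleukin-2 receptor chain (chromosome 2, 11642807 to 11693193), ranged from 0 to 55.8 CPM (median 17.4) in CD4 T cells and from 148 to 831 CPM (median 396) in the Foxp3, Ctla4 and Izumo1r T cells. The classes did not overlap, as in 13 of the genes tested (0.291%), with a log2 fold change of -4.26 ± 0.36 (adjusted p = 3.11e-09). Tnfrsf4, which encodes OX40, ranged from 0 to 31.4 CPM (median 14.5) in CD4 T cells and from 65.0 to 433 CPM (median 173) in the other class, also without overlap (-3.74 ± 0.32). Lgals1 changed by -2.04 ± 0.25 and S100a10 by -1.88 ± 0.21, each lower in 10 of 10 mice.

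The genes lowest in CD4 T cells also included Nrp1 (-3.45 ± 0.38), a semaphorin co-receptor gene found on thymic regulatory T cells, Maf (-3.32 ± 0.47), a transcription factor of effector and intestinal regulatory T cells, Ikzf2 (-3.11 ± 0.46), Capg (-3.14 ± 0.30) and Hopx (-3.09 ± 0.33). Ikzf2 ranged from 10.1 to 514 CPM (median 72.1) in CD4 T cells and from 267 to 2695 CPM (median 1166) in the other class, and so overlapped. Of 5 proliferation genes tested Mki67, Mcm6 and Pcna were lower.

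Naive genes were higher in CD4 T cells in 8 of 18 cases and lower in none (median 0.54). Tcf7 (chromosome 11, 52252371 to 52283014) ranged from 643 to 1200 CPM (median 940) in CD4 T cells and from 272 to 717 CPM (median 470) in the other class, overlapping at the edge and higher in 10 of 10 mice (1.01 ± 0.13, adjusted p = 3.86e-06). Lef1 changed by 0.77 ± 0.14, Ms4a4b by 0.57 ± 0.14, Bach2 by 0.54 ± 0.12 and S1pr1 by 0.55 ± 0.16. Tcf7 and Lef1 are markers that had been named for these cells with results of these data known, so their values are a description. Igfbp4 and Bcl11b, the other markers tested, did not pass. Tgfbr2 ranged from 445 to 653 CPM (median 571) in CD4 T cells and from 183 to 369 CPM (median 320) in the other class, without overlap (0.89 ± 0.12, adjusted p = 2.28e-05). Vipr1, a receptor of vasoactive intestinal peptide, was higher by 1.55 ± 0.28 and Pde3b, a phosphodiesterase gene, by 1.33 ± 0.25. Of 15 T cell receptor signalling genes 2, Themis among them, were higher and 1 (Cd2) lower (median 0.13), and no receptor constant gene passed (median 0.02).

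The calls against the Foxp3, Ctla4 and Izumo1r T cells numbered 223 where at least 10 cells per mouse were asked for (11 CD4 mice and 4 of the other class), and 867 without clusters 3, 6, 7 and 8.

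**Figure D5:**
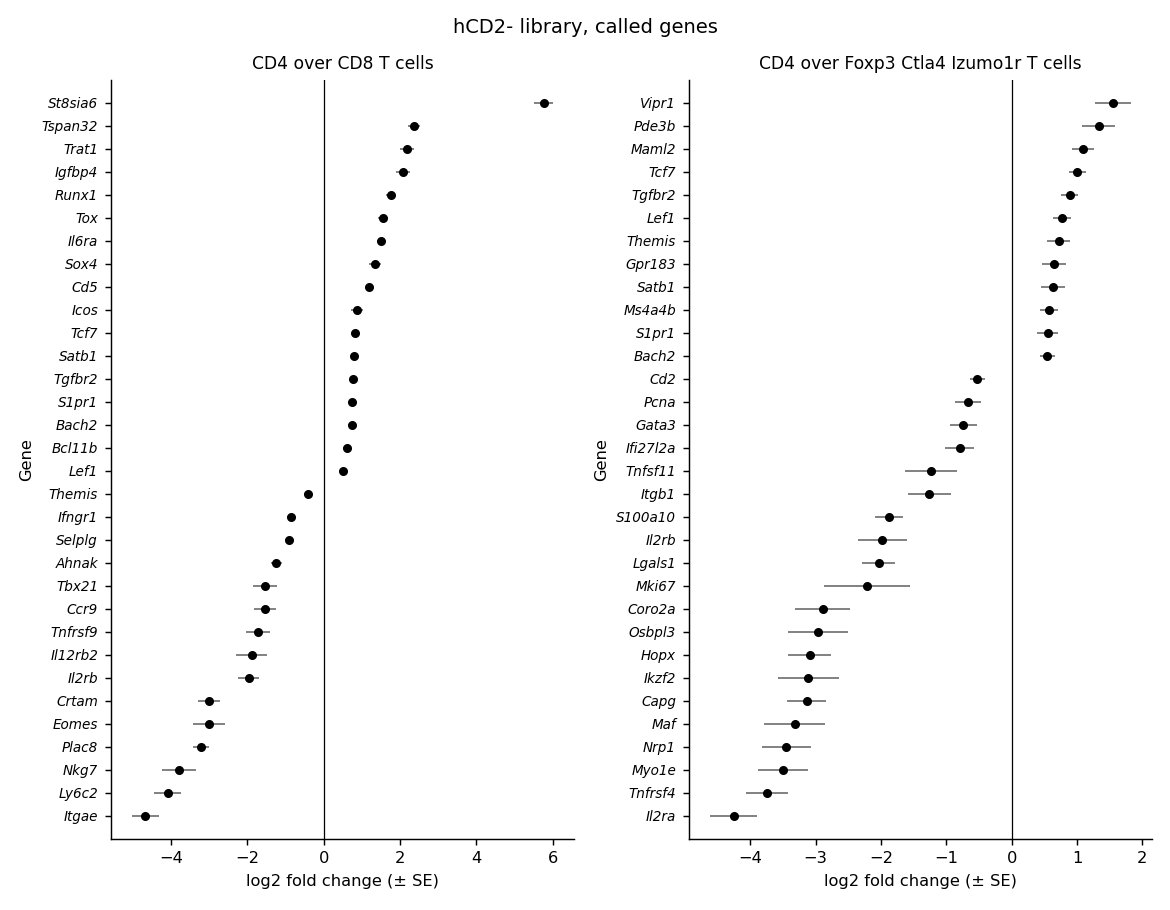
Log2 fold change (± SE) of called genes in hCD2- CD4 T cells over CD8 T cells (left, 12 mice each) and over T cells with at least 2 of Foxp3, Ctla4 and Izumo1r (right, 12 and 10 mice). St8sia6 and Itgae are the ends of the left panel and Vipr1 and Il2ra those of the right one.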

How the data were processed

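Per the submitters' processing notes, the authors used Cell Ranger 8.0.1 and mm10. The deposited matrices hold UMI counts per gene and barcode, unfiltered, and the authors' deposited hashtag table gives each called cell its assignment with a probability (a fraction from 0 to 1). Hashtags named the mice. Multiplet, blank and unassigned barcodes were left out, and no other doublet caller was run. No value column was unused (0).

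The members and gene lists were chosen with earlier results of these data known. Counts were summed per mouse and class (at least 5 cells) and tested in R 4.3.3 by the quasi-likelihood test of edgeR 4.0.16, after filterByExpr and TMM scaling, with Benjamini-Hochberg adjustment over all genes tested and calls under 0.05, with DESeq2 1.42.0 as an alternative. Shares were compared by permutation over mice (100000 permutations, exact with under 10 mice in an arm). P-values measure the spread between mice within 1 library per fraction. Levels are CPM, mean ± SD over mice. Intervals and the limit for a count of 0 (3 counts) cover counting error only. Clusters came from scanpy 1.11.5 (1500 variable genes, 15 components, 15 neighbours, resolution 0.8) and carry no test. Thinning drew 3000 UMIs per cell.

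By the series' design text both fractions came from the same mice, and classes share mice, so the mouse as a block was an alternative. The deviations of arms of the same mouse from the group means correlated at -0.0934 on average between fractions (7 pairs), 0.07 between CD4 and CD8 T cells (12) and 0.059 between CD4 T cells and the Foxp3, Ctla4 and Izumo1r T cells (10).

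Genes were named by a rule: up to 4 called genes per list, genes called against its direction, and, among calls with a mean log2 CPM of at least 5, the 10 largest changes in either direction, leaving out predicted, ribosomal, mitochondrial, immunoglobulin, receptor variable and sex-linked genes. Wdr26, Tmem131l, Cxcr6, ribosomal and mitochondrial genes and Gphn were named after their values were seen. Some genes that met the rule are not reported here. The comparisons without clusters or innate transcripts, the fit with CD8 T cells and the omission of single mice were added after the data were seen. Gene positions are from GENCODE vM21 (GRCm38).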

Additional observations from a re-analysis of the deposited data

Results flagged for a closer look

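Within a group of mice, 10 of 65 groups of values had 1 mouse apart from the rest by Dixon's test, where chance flags about 5%. In hCD2+ CD4 T cells, Irak2 reached 396 CPM in 1 mouse, with the next at 119 CPM, and Nampt 410 CPM, with the next at 192 CPM. The other 8 were highest values in hCD2- T cells with at least 2 of Foxp3, Ctla4 and Izumo1r, against which CD4 T cells were compared: Tnfsf11 at 228 CPM (next 127), Gpr183 at 287 CPM (next 168), Vipr1 at 75.9 CPM (next 41.2) and Atp8b4 at 260 CPM (next 109). In the same cells Tdrp stood at 97.6 CPM (next 52.7), Nrp1 at 377 CPM (next 172), Maf at 800.03 CPM (next 330) and Ikzf2 at 2695 CPM (next 1435).

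The change of Wdr26 between fractions differed between CD4 and CD8 T cells by -0.65 on the log2 scale (SE 0.12, adjusted p = 0.00886 over 6228 genes, edgeR). It was the only gene of the 6228 for which this difference passed, and it was named after its value was seen. Without clusters 6, 7 and 8, 3 of 6448 genes passed, Wdr26 (-0.63) among them.

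Among barcodes outside the cells with 1 hashtag, 21 met the gene rule of the CD4 T cells: 9 multiplets and 1 blank barcode in the hCD2+ library, and 7 multiplets, 3 blank and 1 unassigned barcode in the hCD2- library. They are in no comparison.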

How the results depend on the processing

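The share of CD4 T cells among kept cells kept its direction and its call under every alternative run. Within T cells the difference passed without cells that held a UMI of innate lymphocyte genes such as Zbtb16, Il23r and Il1r1 (-6.10 points, permutation p adjusted over the 3 tests of shares 0.0171) and without clusters 3, 6, 7 and 8 (-5.64, adjusted 0.0489), but not without clusters 6, 7 and 8 (-5.39, adjusted 0.0578). Calls between fractions, 100 as reported, numbered 214 with no filter on low counts, 29 after thinning (787 genes tested), 51 with Cd74 under 500 CPM, 58 without those innate transcripts, 30 without clusters 6, 7 and 8, 20 without clusters 3, 6, 7 and 8, and 58 to 164 without 1 hCD2+ mouse (58 without mouse 8, 60 without mouse 11, 164 without mouse 5). With the mouse as a block there were 19 such calls, and 16 of 18 named genes still tested lost theirs. In the other comparisons the block cost 2 of 66 (Tnfrsf18, Il4ra) and 3 of 41 named genes (Tnfsf11, Dusp1, Mcm6), and changed no other call of a named gene. Against CD8 T cells thinning left 548 calls of 1684 genes. Against the Foxp3, Ctla4 and Izumo1r T cells there were 55 after thinning (667 genes), 223 with at least 10 cells per mouse, 296 with Cd74 under 500 CPM and 867 without clusters 3, 6, 7 and 8. Without the innate transcripts Ptprj (-0.31) and Nampt (-0.34) turned round between fractions, and Nr4a3 (-0.085) against CD8 T cells without clusters 3, 6, 7 and 8. Beyond fewer genes or cells, the causes were not tested. At least 10 cells per mouse could not be run between fractions, with 1 hCD2+ mouse left.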

Other observations

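The 14 interferon-induced genes of the list summed to between 571 and 2094 CPM (median 949) in hCD2+ and between 499 and 1864 CPM (median 725) in hCD2- CD4 T cells. Early response and heat shock genes, which rise with tissue handling, summed to between 1128 and 5034 CPM (median 4028) in hCD2+ and between 1460 and 6464 CPM (median 2450) in hCD2- CD4 T cells, with 6225 CPM in the free RNA of the hCD2+ and 4915 CPM in that of the hCD2- library. Hspa1a, an inducible heat shock gene, ranged from 0 to 1609 CPM in hCD2+ and from 4.48 to 459 CPM in hCD2- CD4 T cells.

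Of lineages outside the gate, erythroid markers were low. The median sum of stromal, endothelial or epithelial markers was above free RNA, but few of the single markers were. The latter 7 markers summed to a median of 299 CPM in hCD2+ and 403 CPM in hCD2- CD4 T cells. Free RNA held 240 CPM of them in the hCD2+ and 93.4 CPM in the hCD2- library. Taken singly, 2 of the 7 stood above free RNA in hCD2+ and 1 in hCD2- CD4 T cells. In each fraction 1 of the 7 was found in at least 10% of the cells. Col3a1 and Pdpn had no UMI in hCD2+ CD4 T cells, and Col1a1, Pdpn and Krt8 none in hCD2- ones. The 3 erythroid markers summed to a median of 8.82 CPM in hCD2+ and 3.59 CPM in hCD2- CD4 T cells, against 631 CPM in the free RNA of the hCD2+ and 235 CPM in that of the hCD2- library. The 7 B or plasma cell markers summed to a median of 106 CPM in hCD2+ and 122 CPM in hCD2- CD4 T cells. Free RNA held 85.8 CPM of these 7 in the hCD2+ and 131 CPM in the hCD2- library. Among the 7, Ms4a1 and Pax5 had no UMI in either fraction. Pigr had none in either fraction, Trp63 none in hCD2+ and Aire none in hCD2-. Prdm16 pooled to 8.30 CPM in hCD2+ and 4.71 CPM in hCD2- CD4 T cells, against 321 CPM and 5.16 CPM in the free RNA of those libraries.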
